A study of Mus musculus with 6 samples.

Results

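Rab genes encode the largest branch of the Ras-like small GTPases. Members were taken as symbols made of Rab, a number and at most 1 further letter. They had to reach FPKM 1 in 3 or more of the 6 libraries, and 38 of the 59 Rab symbols in the files did so. FPKM, the number of fragments scaled to transcript length and library depth, is a level per unit length, so values of different genes can be set side by side. The series holds 24346 symbols, of which 9087 met the same level and were tested.

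The libraries were made from mouse spleen plasma cells, 3 of cells labelled IgM and 3 of cells labelled IgG1. Donor cells in both groups were congenically marked B1-8germ B cells, which carry a knocked-in antibody heavy chain that recognises the hapten NP. They were given to wild-type C57BL/6J mice, immunisation with NP-CGG in alum followed on day 0, and donor plasma cells of the 2 classes were sorted on day 7. The donor cells thus shared 1 engineered heavy chain, and the hosts kept B cells of their own. The ages of the mice are not given in the labels. Nor do they say that libraries within a group derive from separate mice, so the spread behind each p-value could be technical.

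Rab proteins are switches that cycle between a GTP-bound form on membranes and a GDP-bound form. Exchange factors switch them on, GTPase activating proteins switch them off, and a dissociation inhibitor carries the inactive, lipid-modified form through the cytosol. Each Rab marks particular membranes and recruits the tethers and motors that move cargo there. Plasma cells are specialised for protein export: antibody is made in the endoplasmic reticulum (ER), passes through the Golgi and leaves in secretory vesicles, so the Rabs of the early secretory route are of particular interest in this cell type.

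The nucleotide-binding site is shared by the family. Its phosphate-binding loop, a stretch of 8 codons, was found in the coding sequence of 37 of the 38 members and is shown, with 21 nt on either side, for the pair of genes that passed the test (Rab30 and Rab26) and for 4 of the most highly expressed members. Capitals mark the loop, and the sequences come from the GENCODE vM21 transcripts.
Rab30: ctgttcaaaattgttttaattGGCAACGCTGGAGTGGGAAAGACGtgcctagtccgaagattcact
Rab26: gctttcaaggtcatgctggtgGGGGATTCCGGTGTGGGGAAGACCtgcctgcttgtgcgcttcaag
Rab1: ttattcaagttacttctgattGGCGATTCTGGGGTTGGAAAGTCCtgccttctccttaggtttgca
Rab1b: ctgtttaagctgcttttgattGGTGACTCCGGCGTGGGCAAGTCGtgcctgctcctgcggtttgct
Rab2a: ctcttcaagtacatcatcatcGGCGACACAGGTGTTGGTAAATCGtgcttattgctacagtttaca
Rab4b: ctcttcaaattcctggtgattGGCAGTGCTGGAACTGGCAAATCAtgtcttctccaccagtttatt
Even the closest pair shown, Rab1 and Rab1b, matched at 49 of the 66 bases, and Rab30 and Rab26 matched at 36. The longest run of identical bases in the transcripts of Rab1 and Rab1b was 38 nt, against 14 nt for Rab11a and Rab11b. Read length is not given in the sources used here, so how far short reads could be exchanged between such pairs was not tested.

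The libraries showed the plasma cell genes and few transcripts of other lineages. All 7 plasma cell markers were tested, with summed FPKM of 44125 to 50008 in IgM and 36681 to 39225 in IgG1 libraries. The sum does not stand for each marker. Mean FPKM was lower in IgG1 for Jchain, Tnfrsf17, Prdm1 and Irf4, and higher for Xbp1, Sdc1 and Mzb1. The 7 mature B cell markers summed to 124 to 153 in IgM and 97.5 to 124 in IgG1, with Pax5 listed at 0 throughout. The myeloid list summed to 5.92 to 10.7 in IgM and 0.187 to 6.08 in IgG1, with S100a8 and S100a9 at 0. Of that list, Lyz2 had 4.89, 4.77 and 8.44 in IgM and 5.07, 0.160 and 0.309 in IgG1. Csf1r had 2.14, 1.11 and 1.56 in IgM and 0, 0 and 0.0162 in IgG1, without overlap. Itgam, Cd14 and Adgre1 reached at most 1.06. The T cell list reached at most 4.44, the erythroid list 2.77, the platelet list 1.11 and the stroma list 10.98. All 3 NK cell markers were at 0. Immunoglobulin chain genes were not used here, so antibody class rests on the labels alone. More symbols were listed at 0 in IgG1 (12896 to 13481) than in IgM libraries (12159 to 12560), and Rab symbols with FPKM above 0 numbered 45, 46 and 47 in IgM and 43, 39 and 37 in IgG1. The part of these differences, and of the myeloid transcripts, in the Rab results below was not tested.

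A small set of genes made up most of the Rab mRNA. Rab2a, Rab8a, Rab1, Rab1b, Rab7 and Rab4b together held 58.0% to 59.3% of summed Rab FPKM in IgM libraries and 60.9% to 62.2% in IgG1 libraries. Rab2a was the highest member in every library except the third IgG1 library, in which Rab1b was highest. The summed FPKM of all Rab symbols was 1443, 1446 and 1462 in the IgM libraries. It was 1323, 1248 and 1282 in the IgG1 libraries, each of which lay below every IgM library. The FPKM of all symbols went the other way, with sums of 730695 to 806599 in IgM and 855123 to 914019 in IgG1 libraries. Rab symbols thus held 0.179% to 0.1975% of the sum in IgM and 0.140% to 0.155% in IgG1 libraries. In bulk samples such as these, fewer cells of a type and less RNA per cell cannot be told apart.

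**Figure D1:**
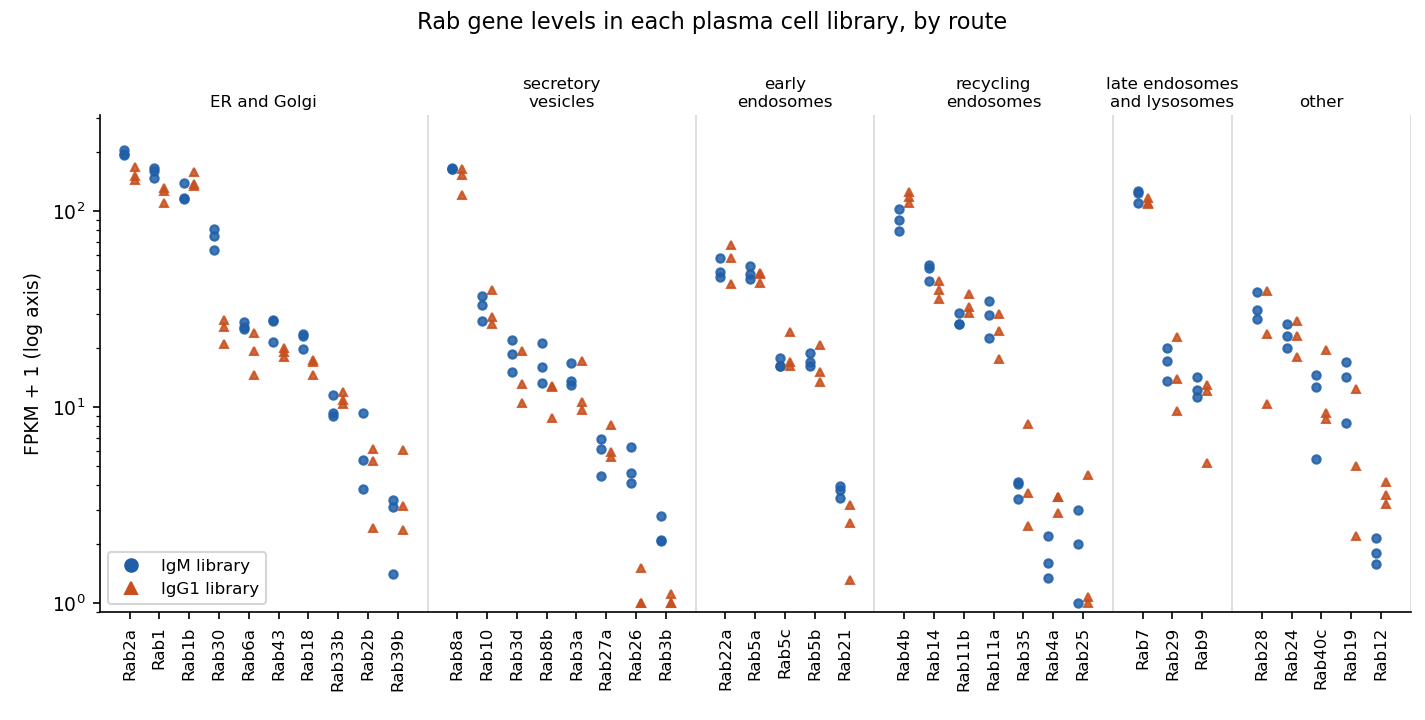
FPKM + 1 (log axis) of each of the 38 Rab genes in the 3 IgM (circles) and 3 IgG1 (triangles) libraries, grouped by the membrane route each Rab is best known for. The IgM and IgG1 points of Rab30 and of Rab26 are widely separated, whereas those of the abundant Rab7 and Rab8a overlap.

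IgG1 was compared with IgM on log2(FPKM + 1) with limma, with p-values adjusted by the Benjamini-Hochberg method over all 9087 genes and a threshold of 0.05. On this scale the change of a low gene is understated, and negative values mean lower in IgG1. Rab30 and Rab26 were lower in IgG1, and 0 members were higher. The 2 lower members are 5.26% of 38, beside 1.76% lower and 4.26% higher among all genes tested. Rab26 and Rab3b reached the level for testing through IgM libraries alone. Had their IgM libraries been as low as their IgG1 libraries, they would not have been counted, so their direction is tied to the filter. Without this pair 1 of 36 members was lower (2.78%), 24 were negative and the median log2 fold change was -0.14. At an unadjusted p under 0.05 there were 6 lower and 3 higher members, 23.7% together, against 22.2% of all genes. Of the 38, 26 (68.4%) had a negative log2 fold change against 53.7% of all genes, and the median was -0.20 against -0.05.

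In 11 members (28.9%) every IgG1 library lay below every IgM library, and in 4 (10.5%) every IgG1 library lay above. Among all genes tested these shares were 13.5% and 13.7%. The 11 were Rab1, Rab2a, Rab30, Rab6a, Rab43, Rab18, Rab8b, Rab26, Rab3b, Rab14 and Rab21, and the 4 were Rab4b, Rab4a, Rab11b and Rab12. Of the 4, Rab4a and Rab12 reached FPKM 1 in all 3 IgG1 libraries but in only 1 IgM library each. With IgG1 libraries as low as their IgM libraries they would not have been counted, so their direction is tied to the filter too. Without Rab26 and Rab3b, 9 of 36 members were wholly lower, and of these 9 only Rab30 passed the test.

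**Figure D2:**
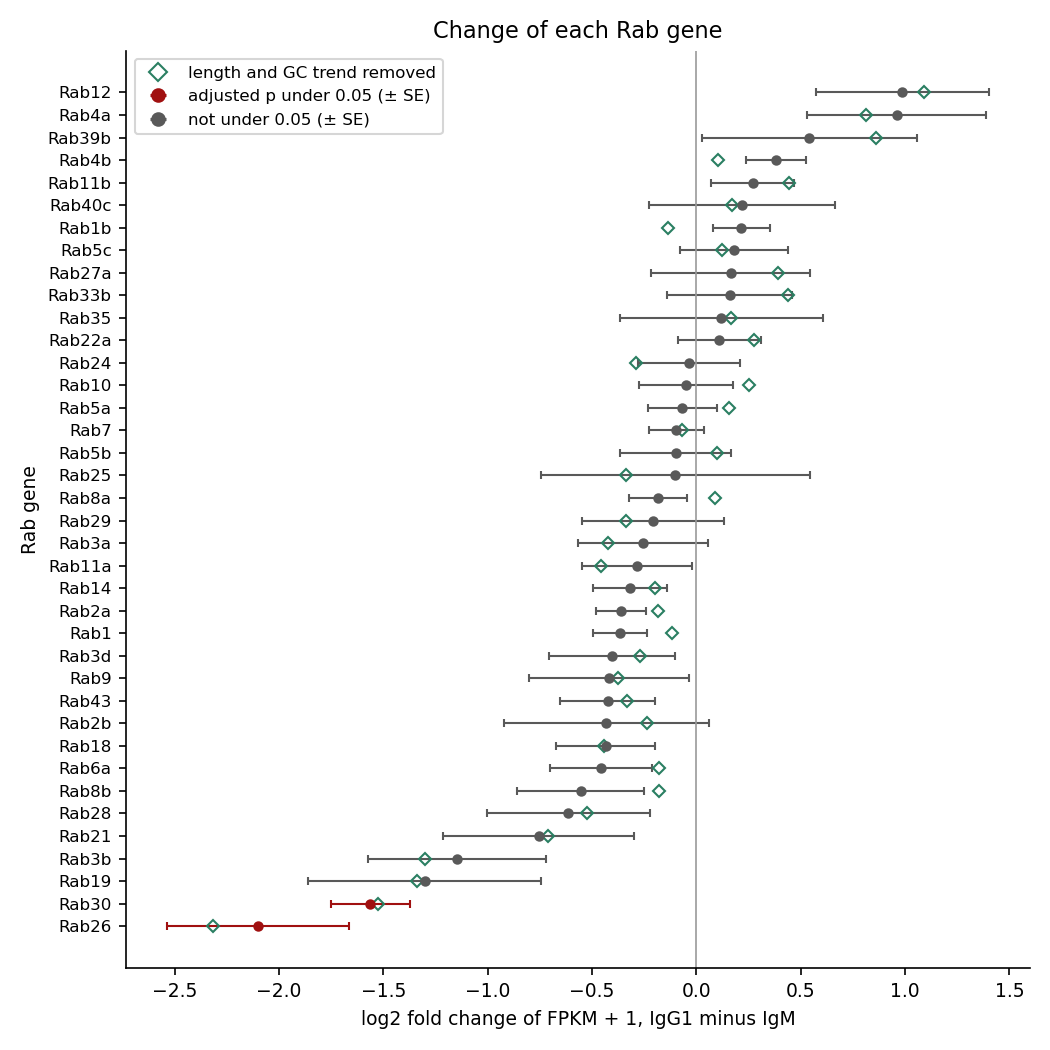
Log2 fold change of FPKM + 1, IgG1 minus IgM, for each of the 38 Rab genes, with its standard error, and the same value after the trend with transcript length and GC content was removed (diamonds). Rab30 and Rab26 are the members with adjusted p under 0.05, and the 2 diamonds lie close to their points at -1.53 and -2.32.

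Rab30, a Golgi Rab known for its part in keeping that organelle's structure, gave the firmest difference. The gene lies at chr7:92741603-92844535 on the forward strand (GRCm38, the assembly called mm10). Its FPKM was 62.9, 80.4 and 73.7 in the IgM libraries and 20.2, 24.7 and 26.7 in the IgG1 libraries. The lowest IgM library was thus above the highest IgG1 library by more than the range within either group. Mean FPKM was 72.3 ± 8.86 (SD, n = 3) in IgM and 23.9 ± 3.37 (SD, n = 3) in IgG1, a 3.03-fold lower level in IgG1. The log2 fold change was -1.56 (SE 0.19, limma adjusted p = 0.00362). It passed the threshold whichever library was left out, with adjusted p at most 0.0261. Without the filter on low values the adjusted p was 0.0615, and without the intensity trend 0.0651. In FPKM, Rab30 had the largest drop in mean among the members, at -48.5, followed by Rab2a at -43.9 and Rab1 at -35.3.

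Rab26, a Rab of secretory vesicles known for its work in exocrine secretory granules, was the other member to pass, although it entered the tested set only because its 3 IgM libraries were above FPKM 1. Its FPKM was 5.28, 3.63 and 3.09 in the IgM libraries, whereas in IgG1 it was 0.513 in the first library and listed at 0 in the second and the third. The log2 fold change was -2.10 (SE 0.44, limma adjusted p = 0.0182). From the smallest steps in the FPKM values, these levels corresponded to about 111, 79 and 71 fragments in IgM and 10, 0 and 0 in IgG1. Rab26 missed the threshold when any library other than the first IgG1 library was left out, with adjusted p of 0.125 without IgM library 1, 0.0547 without IgM library 2, 0.0545 without IgM library 3, 0.0565 without IgG1 library 2 and 0.0508 without IgG1 library 3. With a pseudocount of 0.1 the adjusted p was 0.0505, without the filter 0.0722 and without the intensity trend 0.0651.

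The Rab26 locus (chr17:24527241-24534210, reverse strand, GRCm38) also holds the antisense gene Rab26os and touches Traf7, which encodes a signalling adaptor. Rab26os, at chr17:24528248-24528744 on the forward strand, had FPKM of 15.6, 11.6 and 6.09 in IgM and 2.11, 2.22 and 1.05 in IgG1. The IgG1 libraries were all below the IgM libraries, with a log2 fold change of -2.06 (SE 0.43, limma adjusted p = 0.0191). This call was lost without IgM library 1 (adjusted p = 0.131), IgM library 2 (0.0705) or IgG1 library 3 (0.0523), with no filter on low values (0.125) and without the intensity trend (0.0991). Exons of Rab26 and Rab26os share 0 bases, so their exonic reads fall at different positions. No source used here says that counting used strand, so reads from unspliced Rab26 RNA over Rab26os could not be told from those of Rab26os. Traf7 shares 267 of the 2852 exonic bases of Rab26 on the same strand, and its FPKM was 54.2, 49.5 and 44.9 in the IgM and 38.4, 49.98 and 36.1 in IgG1. Unlike Rab26, the Traf7 groups overlapped.

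The Rabs of the ER and Golgi formed the group with the most tested members and the highest summed level. Of 13 listed symbols, 10 were tested: 1 was lower in IgG1 (Rab30), 0 were higher, and 7 had a negative log2 fold change with a median of -0.40. The median was -0.18 with the length and GC trend removed and -0.60 with FPKM rescaled to totals without Jchain, a plasma cell gene with very high FPKM. That rescaling divides each library by its summed FPKM less Jchain, so it also removes the difference in sums between the groups. Jchain, at 24812 to 28583 in IgM and 14208 to 16961.5 in IgG1, was a small part of these sums (730695 to 806599 and 855123 to 914019). In 6 of the 10, every IgG1 library was below every IgM library, against 13.5% of all genes tested. Summed FPKM of the listed Rabs was 629.7, 648 and 635 in the IgM libraries and 522, 511 and 501 in IgG1, a difference in means of -126.2, to which Rab30, Rab2a and Rab1 gave the largest parts.

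Rab2a, which acts between the ER and the Golgi, had FPKM of 205, 195 and 193 in IgM and 167, 150.3 and 144 in IgG1. The groups did not overlap, yet the log2 fold change of -0.36 (SE 0.12) did not pass, with limma adjusted p = 0.1001. It passed under quantile normalisation (log2 fold change -0.56, adjusted p = 0.0232) and with FPKM rescaled to totals without Jchain (log2 fold change -0.59, adjusted p = 0.0205). Its close relative Rab2b was far lower, at 4.398, 2.82 and 8.34 in IgM and 4.29, 5.14 and 1.42 in IgG1.

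Rab1, the Rab1a gene, directs ER-to-Golgi transport and had FPKM of 166, 147 and 159.9 in IgM and 131, 126 and 109.7 in IgG1. Its log2 fold change was -0.37 (SE 0.13, limma adjusted p = 0.124), which passed only with FPKM rescaled to totals without Jchain (-0.60, adjusted p = 0.0302). Rab1b, which serves the same step, had FPKM of 115, 139 and 116 in IgM and 134, 137 and 158 in IgG1. The Rab1b groups overlapped, with a log2 fold change of 0.22 (SE 0.14, limma adjusted p = 0.399). With the length and GC trend removed, it was -0.14 and every IgG1 library lay below every IgM library.

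The balance within the Rab1 pair was compared by share. Rab1 made up 59.0%, 51.4% and 58.0% of the summed Rab1 and Rab1b FPKM in IgM libraries and 49.5%, 47.8% and 41.0% in IgG1 libraries. These shares did not overlap (56.1% ± 4.12 against 46.1% ± 4.51, SD, n = 3 each). The exact two-sided permutation p was 0.1, the smallest that 3 against 3 libraries can give, and 0.35 after Benjamini-Hochberg adjustment over 7 subfamilies. Rab1b transcripts are short (median 757 nt) and those of Rab1 longer (2642 nt). The log2 fold change of Rab1 minus that of Rab1b was -0.58 as deposited and 0.02 after the trend with transcript length and GC content was removed.

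The other ER and Golgi members were less abundant. Rab6a, which works in Golgi retrograde traffic, had FPKM of 24.0, 24.7 and 26.2 in IgM and 18.3, 23.1 and 13.6 in IgG1 (log2 fold change -0.46, SE 0.25, limma adjusted p = 0.307). Rab18, known for the ER and lipid droplets, had 22.0, 22.6 and 18.8 in IgM and 16.1, 13.6 and 16.5 in IgG1 (log2 fold change -0.43, SE 0.24, limma adjusted p = 0.316). Rab43 ranged from 20.5 to 27.05 in IgM and from 17.0 to 19.0 in IgG1. Each of these 3 had IgG1 libraries wholly below the IgM ones without passing the test. With the length and GC trend removed, Rab6a overlapped between the groups with a log2 fold change of -0.18. Rab33b, a Golgi Rab linked to autophagy, overlapped at 8.03 to 10.5 in IgM and 9.34 to 11.0 in IgG1. Rab39b had 2.35, 0.407 and 2.08 in IgM and 1.37, 5.06 and 2.11 in IgG1, with more spread within each group than between them.

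**Figure D3:**
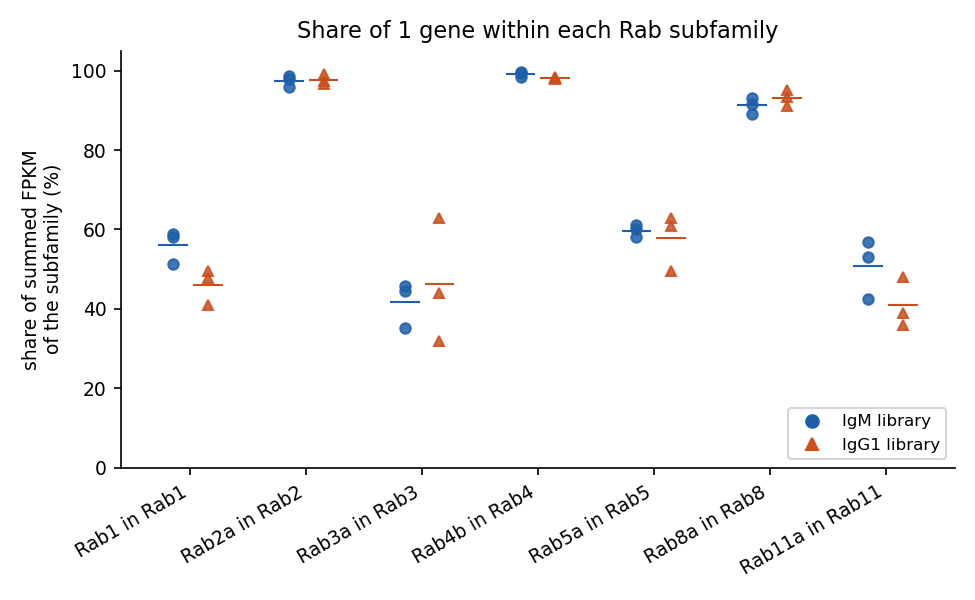
Share (%) of the first-named gene in the summed FPKM of its Rab subfamily in each library, with horizontal lines at the group means. For Rab1 the IgM libraries sit between 51.4% and 59.0% and the IgG1 libraries between 41.0% and 49.5%; the shares of Rab2a, Rab3a, Rab5a, Rab8a and Rab11a overlap between the groups.

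Rabs of secretory vesicles and the plasma membrane numbered 13, of which 8 were tested, with 1 lower in IgG1 (Rab26), 0 higher, 7 negative and a median log2 fold change of -0.33. Without Rab26 and Rab3b, which were counted through their IgM libraries alone, 0 of 6 were called, 5 were negative and the median was -0.22. Rab8a, which carries cargo from the Golgi to the cell surface, dominated this group. Its FPKM was 163, 166 and 164 in the IgM libraries and 165, 121 and 153 in IgG1, with a log2 fold change of -0.18 (SE 0.14, limma adjusted p = 0.492). The 3 IgM libraries differed by far less than the IgG1 libraries, whose spread came from the low second library. Rab8b was less abundant than Rab8a in every library, at 20.2, 12.3 and 15.1 in IgM and 11.6, 11.9 and 7.85 in IgG1 (log2 fold change -0.55, SE 0.30, limma adjusted p = 0.315). With the length and GC trend removed, its log2 fold change was -0.18 and the groups overlapped. Rab8a held 89.0% to 93.1% of the Rab8 pair in IgM and 91.0% to 95.1% in IgG1 libraries, shares that overlapped.

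The Rab3 genes, best known for regulated exocytosis in nerve and gland cells, were present at modest levels. Rab3d had FPKM of 14.1, 21.1 and 17.6 in IgM and 9.504, 12.1 and 18.4 in IgG1, and Rab3a had 12.65, 11.99 and 15.8 in IgM and 16.2, 9.57 and 8.69 in IgG1. Both overlapped between the groups. Rab3b was at 1.78, 1.09 and 1.09 in IgM but listed at 0 in IgG1 libraries 1 and 2 and at 0.115 in library 3. Its log2 fold change was -1.15 (SE 0.43, limma adjusted p = 0.139), and the values correspond to about 31, 20 and 21 fragments in IgM and 0, 0 and 2 in IgG1. Rab3c was listed at 0 in all 6 libraries. Rab10, an exocytic Rab, ranged from 26.6 to 35.9 in IgM and 25.6 to 38.8 in IgG1, and Rab27a, which docks secretory lysosomes, from 3.44 to 5.89 and 4.54 to 7.09.

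Of 8 early endosome Rabs, 5 were tested, with 0 called in either direction, 3 negative and a median log2 fold change of -0.07 (0.01 under median centring and 0.12 with the length and GC trend removed). Rab5a, a regulator of early endosome fusion, ranged from 44.2 to 51.8 in IgM and 42.1 to 47.4 in IgG1, while Rab5b and Rab5c stayed between 12.5 and 23.2 in all libraries. Rab22a had FPKM of 57.0, 48.3 and 45.2 in IgM and 66.1, 56.7 and 41.8 in IgG1 (log2 fold change 0.11, SE 0.20, limma adjusted p = 0.798). Its sign turned when FPKM were rescaled to totals without Jchain (-0.12) or IgG1 library 1 was left out (-0.03). Rab21, which moves integrins through early endosomes, had 2.98, 2.45 and 2.76 in IgM and 1.56, 0.315 and 2.18 in IgG1, without overlap but with a log2 fold change of -0.76 (SE 0.46) that did not pass (limma adjusted p = 0.369). Each of the 5 had an unadjusted p above 0.05.

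Of 8 recycling endosome Rabs, 7 were tested and 0 passed in either direction. Their median log2 fold change was 0.12, but -0.05 with FPKM rescaled to totals without Jchain, against a median of all genes that moved from -0.05 to -0.25. Of the 7, 3 were negative, and 3 had IgG1 libraries wholly above the IgM ones, against 13.7% of all genes tested. Rab4a, among the 3 above, reached FPKM 1 in 1 IgM library but in all 3 IgG1 libraries. Its direction is tied to the filter. Rab4b, a Rab of fast recycling, had FPKM of 78.9, 101 and 89.6 in IgM and 109, 118 and 124 in IgG1. Its log2 fold change was 0.38 (SE 0.14, limma adjusted p = 0.143), and 0.10 once the length and GC trend was removed. Part of its exon sequence overlaps another coding gene. This holds for 8 members in all, the others being Rab2b, Rab3a, Rab5a, Rab6a, Rab24, Rab26 and Rab43. With the strand setting not given, the part of shared bases in their values was not tested. Rab4a was far lower, at 1.21, 0.345 and 0.594 in IgM and 1.88, 2.49 and 2.46 in IgG1 (log2 fold change 0.96, SE 0.43, limma adjusted p = 0.214). The Rab4a share of the Rab4 pair was 0.339% to 1.51% in IgM and 1.69% to 2.06% in IgG1, again without overlap.

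Rab11b, of the recycling endosome proper, ranged from 25.5 to 29.1 in IgM and 29.4 to 36.9 in IgG1, and Rab11a overlapped at 21.6 to 33.7 and 16.5 to 29.1. Rab14, which links the Golgi to endosomes, was the recycling member with IgG1 libraries wholly below IgM, at 34.7 to 43.2 against 43.4 to 52.3, a gap far smaller than the range of either group. Rab35 ranged from 2.40 to 3.15 in IgM and 1.47 to 7.17 in IgG1. Rab25, typical of epithelia, was the member closest to the filter, at 1.99, 0 and 1.01 in IgM and 3.52, 0.0795 and 0 in IgG1.

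The late endosomal group had 3 tested of 8 listed, all 3 negative with a median log2 fold change of -0.21, and 0 called. Rab7, the main Rab of late endosomes and lysosomes, had FPKM of 123, 109 and 125 in IgM and 116, 109 and 109 in IgG1 (log2 fold change -0.10, SE 0.13, limma adjusted p = 0.728). Rab29 ranged from 12.6 to 19.1 in IgM and 8.59 to 21.8 in IgG1, and Rab9, which returns receptors to the Golgi, from 10.2 to 13.3 and 4.21 to 12.1. In each of the 3 the groups overlapped.

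Of 9 Rabs with other or less defined routes, 5 were tested and 0 passed, with a median log2 fold change of -0.03. It was 0.04 under median centring, -0.26 with FPKM rescaled to totals without Jchain and -0.29 with the length and GC trend removed. Rab12, linked to receptor degradation and autophagy, had FPKM of 1.15, 0.578 and 0.799 in IgM and 2.21, 3.15 and 2.55 in IgG1, without overlap. Its log2 fold change of 0.99 (SE 0.41, limma adjusted p = 0.189) was the highest among the 38 members, followed by Rab4a at 0.96. Both reached FPKM 1 in 1 IgM library but in 3 IgG1 libraries, so both directions are tied to the filter. With a pseudocount of 0.1, Rab4a was higher, at 1.67 against 1.57 for Rab12. Rab19 had 16.02, 7.35 and 13.3 in IgM and 3.99, 11.3 and 1.20 in IgG1, so the second library of each group broke the pattern of the others (log2 fold change -1.30, SE 0.56, limma adjusted p = 0.196). Rab28, known for its role in photoreceptors and cilia, had 27.2, 38.0 and 30.3 in IgM and 22.7, 9.35 and 38.2 in IgG1 (log2 fold change -0.61, SE 0.39, limma adjusted p = 0.395), with the highest and lowest values both in IgG1. Rab24, linked to autophagy, ranged from 19.0 to 25.6 in IgM and 17.1 to 26.6 in IgG1, and Rab40c, which carries a ubiquitin ligase module, from 4.47 to 13.7 and 7.75 to 18.7.

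The 21 Rab symbols under the filter had a highest FPKM of 1.99. Rab15, Rab17, Rab33a, Rab38, Rab3c, Rab40b, Rab44 and Rab9b, 8 in all, were listed at 0 in every library. Rab27b, Rab32, Rab39 and Rab7b were above 0 in IgM only, Rab36 in IgG1 only, and the other 8 (Rab13, Rab20, Rab23, Rab31, Rab34, Rab37, Rab42 and Rab6b) in both. Nearest to the filter were Rab13, Rab20 and Rab23, each at or above 1 in 2 libraries. Rab23 had FPKM of 1.95, 0.642 and 1.78 in IgM and 0.387, 0 and 0.0148 in IgG1, Rab20 had 1.99, 0.774 and 0.981 and then 1.38, 0 and 0, and Rab13 had 1.58, 0.5995 and 0.695 and then 0, 1.59 and 0.

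Transcript length and the comparison moved together across all genes in these files: longer transcripts had lower values in IgG1 libraries, with a Spearman correlation of -0.36 over 9048 tested genes with a length, which share the same 6 libraries. Over the 38 members the correlation was 0.09, and their median transcript length was 2086 nt against 2488 nt. After the trend was removed, the correlation of length with the log2 fold change was 0.49 over the members and -0.03 over all genes, so removing the trend gave the members a slope with length that the deposited values lacked. With the trend of length and GC content removed, Rab30 had a log2 fold change of -1.53 (limma adjusted p = 0.00471) and Rab26 of -2.32 (0.0204). Both calls held. Rab2a (-0.18) and Rab1 (-0.12) came nearer to 0, and Rab1b (-0.14) and Rab8a (0.09) changed sign. After this step the groups did not overlap for 9 members lower in IgG1, against 10.3% of all genes, and for 5 higher, against 13.2%. Rab1b joined the lower set, and Rab6a, Rab8b and Rab14 left it. Rab33b and Rab5a joined the higher set, and Rab4b left it. The members' median was then -0.18 against 0.01 for all genes.

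**Figure D4:**
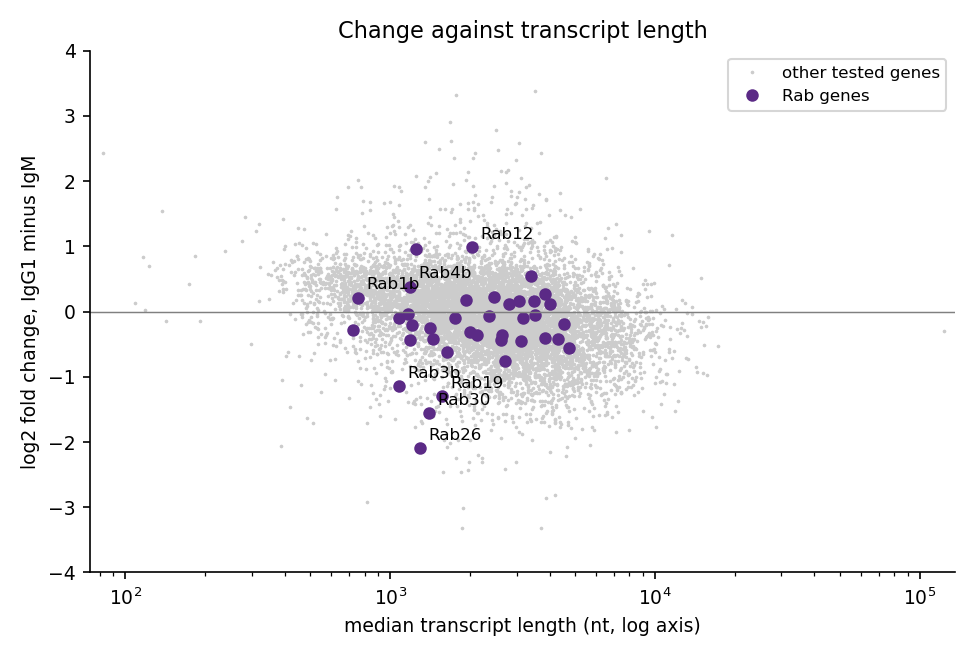
Log2 fold change (IgG1 minus IgM) of every tested gene with a length against median transcript length in nt (log axis), with the 38 Rab genes as large points. The grey points slope downwards with length, and Rab26 and Rab30 lie near the lower edge of the genes of similar length at -2.10 and -1.56.

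Genes that run the Rab cycle were read from lists of 165 symbols, of which 120 were tested, with 1 higher and 2 lower in IgG1 (2.50%, against 6.02% of all genes in either direction). The median log2 fold change of the 120 was -0.15, and 82 were negative. Exchange factors numbered 43 tested of 52, with 1 higher, 1 lower, 24 negative and a median of -0.11. It was -0.00615 with the length and GC trend removed and -0.33 with FPKM rescaled to totals without Jchain. Rabgef1, which encodes the Rab5 exchange factor Rabex-5, had FPKM of 26.6, 16.4 and 18.0 in IgM and 7.87, 6.60 and 5.84 in IgG1. The IgG1 libraries were all less than any IgM library, with a log2 fold change of -1.44 (SE 0.30, limma adjusted p = 0.0194) and -1.24 (adjusted p = 0.0447) with the length and GC trend removed. The call was lost without IgM library 1 (adjusted p = 0.147), IgM library 3 (0.0628) or IgG1 library 2 (0.0527), with no filter on low values (0.0863) and without the intensity trend (0.0954).

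Trappc6a, a subunit of the TRAPP complexes that switch on Rab1, had FPKM of 93.1, 106 and 112 in IgM and 156, 149.96 and 166 in IgG1. Its log2 fold change was 0.60 (SE 0.13, limma adjusted p = 0.0231), but 0.12 (adjusted p = 0.657) with the length and GC trend removed, and its transcripts are short at a median of 718 nt. The call was also lost without IgM library 1 (adjusted p = 0.128), IgM library 3 (0.0552), IgG1 library 2 (0.0591) or IgG1 library 3 (0.0651). It was lost too under quantile normalisation (0.0709), with FPKM rescaled to totals without Jchain (0.0928), with no filter on low values (0.0723) and without the intensity trend (0.176). GTPase activating proteins numbered 24 tested of 38, with 0 higher, 1 lower, 19 negative and a median log2 fold change of -0.24. It was -0.09 with the length and GC trend removed and -0.45 with FPKM rescaled to totals without Jchain. Evi5, a TBC-domain activating protein linked to Rab11, had FPKM of 18.7, 11.7 and 14.9 in IgM and 3.93, 4.15 and 4.59 in IgG1. Its log2 fold change was -1.60 (SE 0.33, limma adjusted p = 0.0167), and -1.25 (adjusted p = 0.0614) with the length and GC trend removed. It also missed the threshold without IgM library 1 (adjusted p = 0.128) or IgM library 3 (0.0723), with no filter on low values (0.0732) and without the intensity trend (0.0683).

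Of 7 tested genes for Rab carriers, escorts and lipid attachment, 0 passed, with 3 negative and a median log2 fold change of 0.19. It was -0.01 under quantile normalisation, -0.04 with FPKM rescaled to totals without Jchain and -0.00434 with the length and GC trend removed. Rabac1, which helps release Rabs from their carrier, was at 631, 841 and 642 in IgM and 854, 813 and 818 in IgG1 (limma adjusted p = 0.264), and the dissociation inhibitor Gdi2 at 203, 236 and 218 and then 231, 290.2 and 234 (limma adjusted p = 0.423). Of 21 tested effectors and linkers of 42 listed, 0 passed, with 15 negative and a median of -0.13. It was -0.03 under quantile normalisation, -0.06 with the length and GC trend removed and -0.30 with FPKM rescaled to totals without Jchain. The highest of them, Rilpl2, overlapped at 133, 159 and 137 in IgM and 117, 151 and 139 in IgG1. Inpp5b, a phosphatase recruited by Rab5, was at 16.04, 15.4 and 15.9 and then 16.5, 37.7 and 15.8. All 25 membrane tethers were tested, and 0 passed in either direction, while 21 were negative with a median of -0.53 that was -0.24 after the length and GC trend was removed. Tether transcripts are long, at a median of 4316 nt.

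Among the tethers, Uso1, which Rab1 recruits to ER-derived vesicles, had FPKM of 63.1, 57.4 and 64.9 in IgM and 44.9, 39.2 and 42.0 in IgG1, without overlap (log2 fold change -0.54, SE 0.16, limma adjusted p = 0.0709). It passed only with FPKM rescaled to totals without Jchain (-0.77, adjusted p = 0.0237). The Golgi tether Golga5 had 51.9, 38.3 and 43.5 in IgM and 32.0, 33.3 and 26.1 in IgG1 (log2 fold change -0.53, limma adjusted p = 0.138). Over the 5 lists an unadjusted p under 0.05 was reached by 9 exchange factors, 2 activating proteins, 2 effectors, 5 tethers and 1 carrier gene, together 15.8% of the 120 against 22.2% of all genes.

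**Figure D5:**
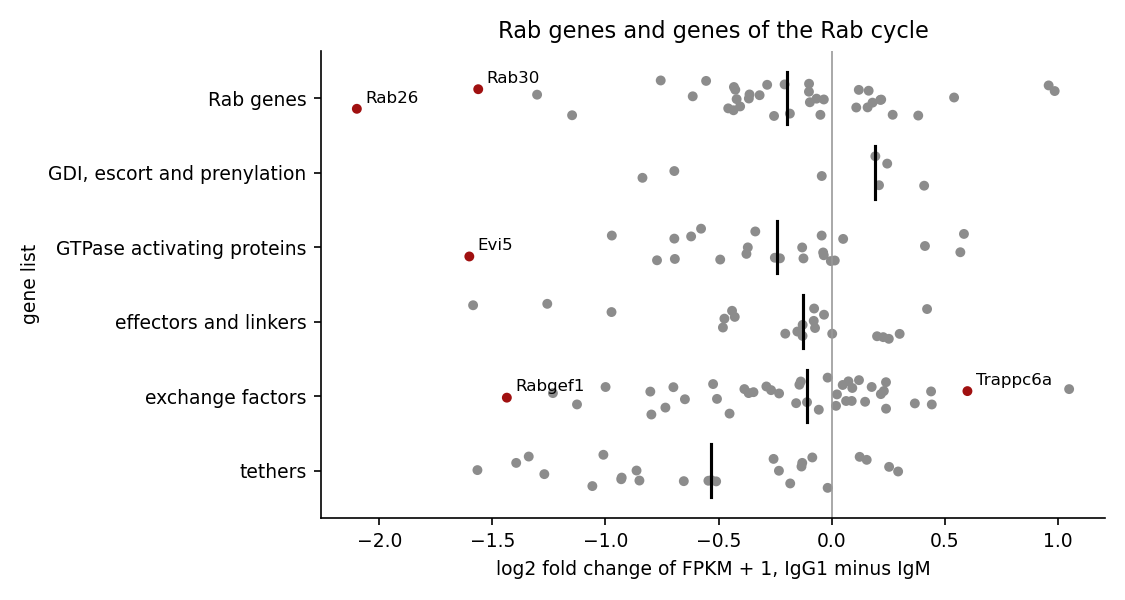
Log2 fold change (IgG1 minus IgM) of each tested Rab gene and of each tested gene in 5 lists of the Rab cycle, with vertical bars at the list medians and named points where the adjusted p was under 0.05. The tether median sits lowest at -0.53, and the carrier list (GDI, escort and prenylation) has a median of 0.19. The latter was -0.01 under quantile normalisation and -0.04 with FPKM rescaled to totals without Jchain.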

How the data were processed

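Per the labels' protocols, total RNA was column-purified, full-length cDNA was made with SMART-Seq HT and libraries with Nextera XT. The submitters' processing notes name Cuffdiff, Cufflinks 2.2.1, Bowtie2 2.3.5.1 and TopHat2 2.1.1, with build mm10. Which annotation and strand setting were used is not given in the sources used here. Values deposited by the authors were FPKM per gene symbol, per the file headers. They divide by transcript length and mapped depth, so a few very abundant transcripts or uneven coverage of long ones can move every value. Counts were not used here. The smallest FPKM steps imply about 15500000 to 17800000 fragments a library, an approximate figure.

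FPKM were used without rescaling. In the alternative called rescaling without Jchain, each library was divided by its summed FPKM less Jchain, relative to the mean of these sums. It therefore evens out the sums of the libraries and does more than take Jchain out. Genes that reached FPKM 1 in 3 or more of the 6 libraries were fitted as log2(FPKM + 1) with limma 3.58.1 in R 4.3.3 (group only, eBayes with an intensity trend; Benjamini-Hochberg over 9087 genes, threshold 0.05); scripts were tested on simulated data. For the length and GC alternative, a loess curve (span 0.5) on transcript length and GC content from GENCODE vM21 was removed from each library; 99.6% of tested genes had a length. Library values are given for members past the threshold, the 12 with the largest absolute log2 fold change, the 8 with the highest mean FPKM and their subfamily members; of each regulator list, for genes past the threshold or, where there were none, the 2 with the highest mean. Members and lists were chosen with earlier results of these data known.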

Additional observations from a re-analysis of the deposited data

How the results depend on the processing

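Members higher in IgG1 numbered 0 in all 18 alternatives. Members lower, 2 as reported, numbered 4 when FPKM were rescaled without Jchain, 3 under quantile normalisation, 1 with a pseudocount of 0.1, 1 with a filter of FPKM 5, 0 with no filter (genes above 0 in at least 1 library) and 0 without the intensity trend; leaving out 1 library in turn gave 1 to 2. Genes called in all, 547, numbered 6 with no filter, 8 without the trend, 257 with the length and GC trend removed and 108 to 645 without 1 library. Higher calls were 70.7% of these, 80.6% under median centring, 48.5% under quantile normalisation and 31.1% under rescaling without Jchain. The members' median log2 fold change of -0.20 was -0.12 under median centring, -0.42 under rescaling without Jchain and -0.26 to -0.11 without 1 library. Signs turned for Rab1b (-0.0152 rescaled; -0.14 with length and GC removed, with or without the replicate block), Rab8a (0.0908 with length and GC removed, with or without the block), Rab22a (-0.12 rescaled; -0.0349 to 0.289 without 1 library, negative only without IgG1 library 1), Rabac1 (-0.0729 under quantile normalisation; -0.12 with length and GC removed, with or without the block), Gdi2 (-0.0380 rescaled) and Rilpl2 (0.00198 under median centring; -0.155 to 0.0291 without 1 library, positive without IgM library 2 or IgG1 library 1); the cause was not tested. Of 569 values for 32 named genes, 514 kept direction and side of the threshold. The labels do not say whether replicate numbers pair the libraries. Correlations of same-numbered deviations were 0.101, -0.03 and -0.000571, and IgM library 2 correlated best with IgG1 library 3, at 0.0958. With 3 libraries a group, such values cannot decide whether the libraries are paired. With the replicate as a block, 586 genes were called, or 407 with length and GC removed, with 0 members higher and 2 lower. Depth limits low members: Rab26, Rab3b, Rab4a, Rab12 and Rab25 rest on at most 111 estimated fragments a library.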

Other observations

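The SD as a percentage of the mean FPKM had a median of 14.8% over the 38 members in IgM and 23.5% in IgG1, against 19.0% and 28.1% over all genes tested. It was larger in IgG1 for 27 of the 38 members (71.1%) and for 67.3% of all genes, shares that lie near each other. Members with a wide spread in IgG1 were Rab28 (61.7%, against 17.4% in IgM), Rab35 (80.2% against 14.1%) and Rab21 (70.2% against 9.73%). The difference in spread was not tested, and these 3 genes were picked with their values in view.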
